A study of Mus musculus with 4 samples.

Results

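Chemokine receptors of helper T cell subsets were examined as a group of 9 genes, Ccr2, Ccr4, Ccr6, Ccr7, Ccr8, Cxcr3, Cxcr4, Cxcr5 and Cxcr6. They were taken from the array by symbol: every probe set to which the platform annotation assigns a single gene, when that gene is in the group, was kept. This gave 13 probe sets of the 45101 on the array, 4 for Ccr2, 2 for Cxcr6 and 1 for each other gene, and no further probe set named a member together with another gene. The RNA came from naive mouse helper (CD4+) T cells of the spleen and of the peripheral and mesenteric lymph nodes, grown for 7 days with concanavalin A, a T cell mitogen from plants, at 2.5 ug/ml. All samples received human TGFb1, a cytokine known to turn naive helper cells into regulatory ones, at 1 ng/ml. The control group of 2 arrays received TGFb1 alone, and the other group of 2 arrays received TGFb1 plus the steroid hormone progesterone at 2000 ng/ml. No culture without TGFb1 was compared, and the sources used here give no strain, sex or age of the animals. The arrays of the groups differ in sex-linked genes, as given below, so sex and progesterone cannot be told apart. Nothing states that the replicates are separate cultures or animals. The p-values therefore cover the spread between these 4 arrays alone, which may be technical.

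Chemokine receptors are G protein-coupled receptors that steer migrating leukocytes along gradients of small secreted proteins, the chemokines. Naive T cells carry Ccr7, which brings them into lymph nodes, and helper subsets gain other receptors as they differentiate: Cxcr3 marks Th1 cells, Ccr4 and Ccr8 mark Th2 cells and parts of the regulatory population, Ccr6 marks Th17 cells, and Cxcr5 marks follicular helper cells. Cxcr4 is found on most T cells and answers the stromal chemokine Cxcl12.

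Among the 13 probe sets the Cxcr4 probe set alone passed the test as reported, and it was higher with progesterone. That call depended on the processing: Cxcr4 did not pass for values as deposited or in some other settings given below. As deposited, Ccr2 1421186_at, Cxcr6 1422812_at and Ccr6 passed instead. The Ccr7, Ccr8 and Cxcr3 probe sets had higher normalised means with progesterone, which turned for Ccr7 and Cxcr3 under other scalings. Both Cxcr6 probe sets and 3 of the 4 Ccr2 probe sets had lower means. None of these 5 genes passed as reported. Ccr4, Ccr6, Cxcr5 and 3 of the Ccr2 probe sets were dim. Differences are given below as log2 differences, progesterone plus TGFb1 minus TGFb1 alone, of log2(signal + 16) after quantile normalisation, with standard errors (SE) from limma and n = 2 arrays per group. A difference passed when its limma p-value, adjusted by Benjamini-Hochberg over the 22518 probe sets tested, lay under 0.05. Adding 16 to each signal makes the fold of a dim probe set smaller than that of its signals.

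The promoters of Cxcr4, the member that passed, and of Cxcr6, whose 2 probe sets were both lower, are shown with the 250 bases before the annotated start, read 5′ to 3′ on the gene's strand. They come from RefSeq on build GRCm38.p6, Cxcr4 at chr1:128592300-128592549 on the minus strand and Cxcr6 at chr9:123806227-123806476 on the plus strand. Capitals mark AGAACA, which with its reverse complement TGTTCT is the core hexamer of the response elements bound by steroid hormone receptors.
Cxcr4: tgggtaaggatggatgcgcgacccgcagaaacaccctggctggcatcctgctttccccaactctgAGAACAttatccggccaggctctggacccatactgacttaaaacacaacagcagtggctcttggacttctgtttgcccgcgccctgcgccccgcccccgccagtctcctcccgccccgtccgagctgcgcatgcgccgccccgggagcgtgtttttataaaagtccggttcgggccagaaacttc
Cxcr6: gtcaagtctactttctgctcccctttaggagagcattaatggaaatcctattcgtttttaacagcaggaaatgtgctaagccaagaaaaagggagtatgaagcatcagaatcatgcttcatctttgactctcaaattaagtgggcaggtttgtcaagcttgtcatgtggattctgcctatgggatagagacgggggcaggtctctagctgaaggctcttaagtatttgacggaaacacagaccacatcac
The search covered 250 bases before to 50 bases after each start, on both strands. In the Cxcr4 promoter the hexamer began 185 bases before the start, and in Cxcr6 neither hexamer was found. The table held 8 promoters of 7 members, with 2 starts for Ccr6 and no entry for Ccr7 and Cxcr5. TGTTCT or AGAACA was present in 2 of the 8, those of Cxcr4 and of 1 Ccr6 start, and in 19% of all 32851 promoters of this length. CAGACA or TGTCTG, a hexamer bound by SMAD proteins, the transcription factors of the TGFb pathway, was present in 1 of the 8, that of Ccr8, and in 21% of all promoters. The hexamers searched do not overlap each other in the member promoters. A match describes letters only.

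As a check of the arrays, the cells carried the T cell genes of the label. Cd3e, a chain of the T cell receptor complex, had normalised signals of 2769 and 2958 with TGFb1 alone and 3177 and 3017 with progesterone, and none of the 9 tested T cell markers passed the test. Under other scalings some fell: Cd4 with the same trimmed mean, Cd4 as deposited, and 7 of the 9 with the median centring explained below (list median -0.46), where 29.2% of all genes fell. Cd4 was also called lower without TGFb1 replicate 1 (limma adjusted p = 0.0211), and with the replicate number as a block Cd2 and Cd4 were called lower and Lat higher. Trimmed mean signals ran from 107.7 to 154.5, highest over lowest 1.43, and were lower in both progesterone arrays than in both TGFb1 arrays, so the direction of a gene can depend on scaling. The median difference of all tested probe sets was 0.03 after quantile normalisation, 0.10 with arrays scaled to the same trimmed mean, -0.16 for values as deposited, and -0.28 under median centring, in which the median log2 value of every array is set equal. The groups also differed in sex-linked genes. The X-linked Xist RNA had deposited signals of 9.52 and 9.70 with TGFb1 alone and 1390 and 825 with progesterone, and the Y-linked Eif2s3y had 689 and 727 against 4.25 and 0.492. By these genes the cells of the groups differed in sex. Every comparison of the groups, above as well as below, is between arrays that differ in this way. The part of this difference in the results cannot be told apart from that of progesterone. In RNA from whole cultures, fewer cells of a kind and less RNA per cell cannot be told apart.

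In the arrays normalised to a common distribution, the median probe set had a signal of 25.4. A mean level at or under the median of all probe sets was taken as near background and left untested, and by that measure no member was near background, although Ccr6 stood only at the 50.9th percentile. A further limit, chosen after the values were seen, called a probe set dim when its mean normalised signal was under 3 times that median. By this limit 6 of the 13 were dim: Ccr4 (1.98 times the median), Ccr6 (1.23 times), Cxcr5 (1.73 times) and the Ccr2 probe sets 1421187_at (2.40 times), 1421188_at (1.39 times) and 1460067_at (1.77 times). The other 7 lay between 3.84 times for Ccr2 1421186_at and 118 times for Ccr7. These multiples say how near a probe set is to background and do not rank the genes, since probe sets differ in how brightly they bind.

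**Figure D1:**
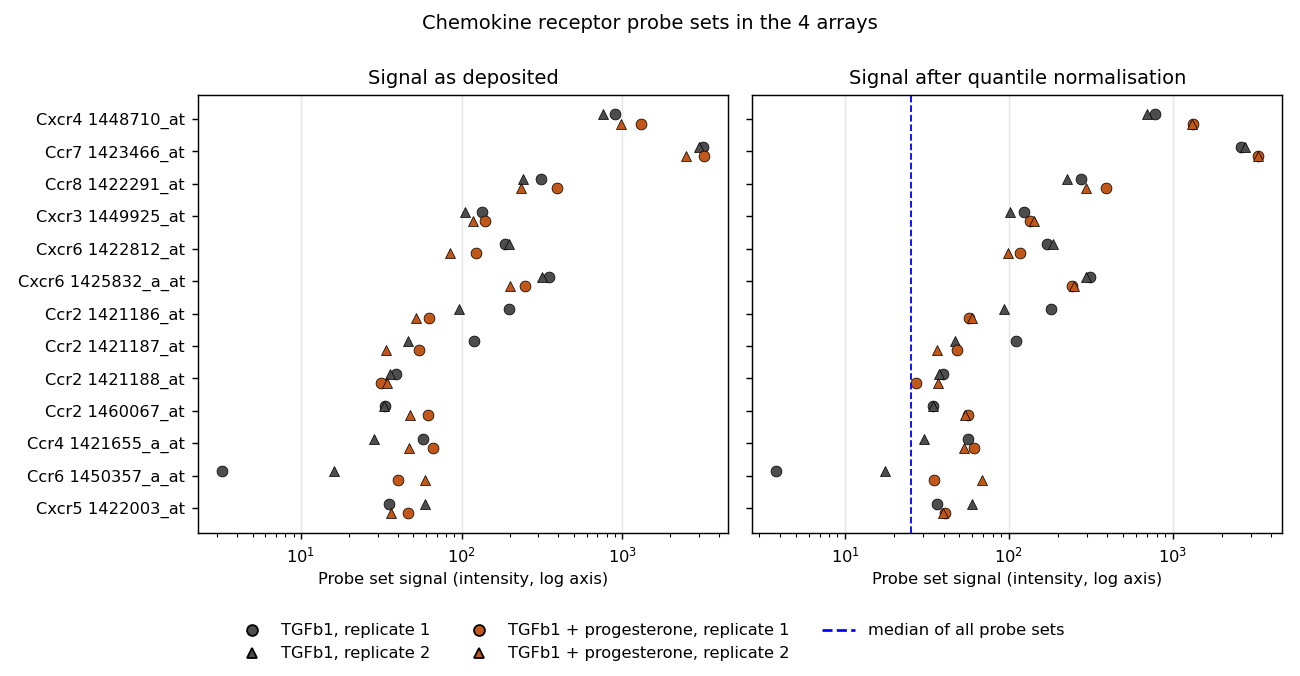
Signal of the 13 receptor probe sets in each array, as deposited (left) and after quantile normalisation (right), on log axes, with grey for TGFb1 alone, orange for TGFb1 plus progesterone, circles for replicate 1 and triangles for replicate 2; the dashed line is the median of all probe sets, 25.4. The Cxcr4 points of the 2 groups are apart in both panels, whereas those of Ccr7, Ccr8 and Cxcr3 are apart on the right and overlap on the left.

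Of the 13 member probe sets, 1 passed as higher and 0 as lower by limma, against 5.99% of all tested probe sets in either direction, 2.36% higher and 3.62% lower. At an unadjusted p under 0.05, 7 of the 13 were counted, 5 higher and 2 lower, against 21.3% of all probe sets, 11.1% higher and 10.2% lower. After normalisation the arrays of the groups did not overlap for 10 of the 13, with 6 above and 4 below, where 53.2% of all probe sets did not overlap, 29.3% above and 24% below. As deposited they did not overlap for 7 of the 13, with 3 above and 4 below, where 51.7% of all did not overlap, 13.9% above and 37.8% below. The median difference was 0.27 over the 13 and 0.03 over all tested probe sets, and the members ran from -0.99 for Ccr2 1421186_at to 1.34 for Ccr6. Both medians hold for quantile normalisation only. The 0.27 is the value of Cxcr3, which was 0.37 with the same trimmed mean, 0.11 as deposited and -0.02 with median centring. In those settings the median of all tested probe sets was 0.10, -0.16 and -0.28, and that of the 13 was not taken. With 2 arrays against 2 there are only 3 ways to split them, so an exact two-sided permutation test of a single probe set could not give a p below 0.333, and none was run.

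**Figure D2:**
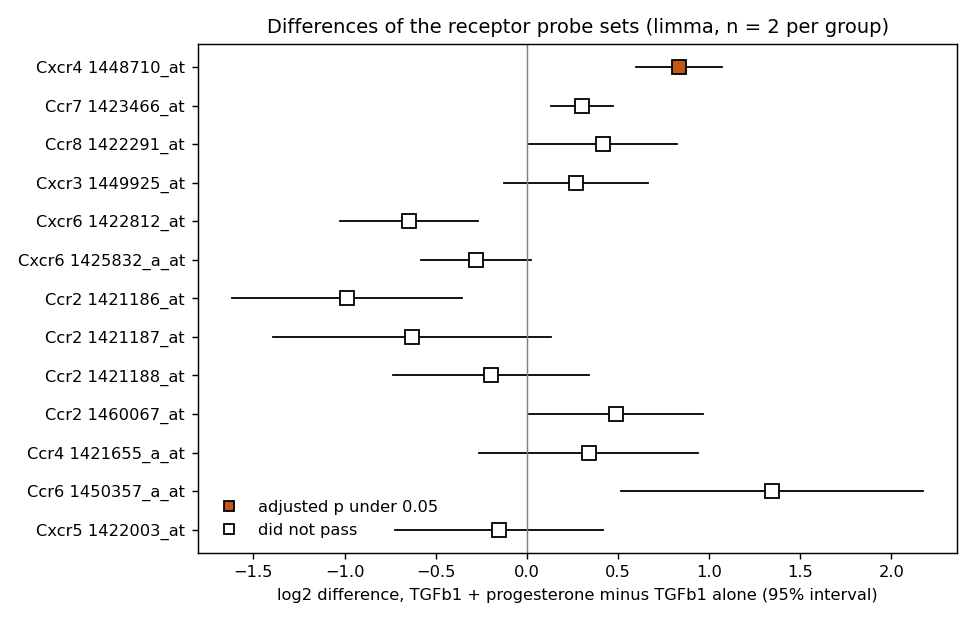
log2 difference (TGFb1 plus progesterone minus TGFb1 alone) of each receptor probe set, with its 95% interval from limma and n = 2 arrays per group; the filled square passed at an adjusted p under 0.05 and open squares did not. The filled square is Cxcr4 at 0.83, and the 4 Ccr2 probe sets lie on both sides of 0, from -0.99 to 0.49.

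Cxcr4, probe set 1448710_at, was the receptor with a called difference. Its deposited signals were 908 and 760 with TGFb1 alone and 1313 and 985 with progesterone. After normalisation they were 782 and 697 against 1338 and 1320. Both progesterone arrays were above both TGFb1 arrays on either scale. On the log2 scale the group means were 9.56 ± 0.12 (SD, n = 2) and 10.39 ± 0.01 (SD, n = 2), and the rise was 0.83 ± 0.10 (SE), a 1.78-fold difference, with a limma adjusted p = 0.00407 and a 95% interval of 0.60 to 1.07. The size depended on scaling: it was 0.74 with arrays scaled to the same trimmed mean (limma adjusted p = 0.00538), 0.45 as deposited (limma adjusted p = 0.364) and 0.32 with median centring (limma adjusted p = 0.157). Without progesterone replicate 1 it was 0.83 (limma adjusted p = 0.0544), and without progesterone replicate 2 it was 0.85 (limma adjusted p = 0.0701). Cxcl12, the ligand of this receptor, was near background, with normalised signals of 2.17 and 6.93 against 8.79 and 15.8 at its brightest probe set, and was not tested.

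Named by a set rule, 3 tested probe sets of other genes had the profiles over the 4 arrays closest to that of Cxcr4. They were those of B3galnt2, a glycosyltransferase gene, Ccr9, the gut homing chemokine receptor gene, and Snapc3, a subunit gene of the small nuclear RNA activating complex. Their root mean square distances from the centred log2 profile of Cxcr4 were 0.0190, 0.0243 and 0.0268. Over 4 arrays such a likeness describes these arrays only.

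Ccr7, the lymph node homing receptor of naive and central memory T cells, probe set 1423466_at, was bright in every array. Its deposited signals were 3175 and 2991 with TGFb1 alone and 3237 and 2493 with progesterone, so the groups overlapped. After normalisation they were 2612 and 2769 against 3304 and 3341, with both progesterone arrays above. The difference was 0.30 ± 0.07 (SE), a 1.23-fold higher value, with a 95% interval of 0.13 to 0.47 and a limma adjusted p = 0.0565, which missed the threshold. Its sign followed the scaling, at -0.12 as deposited and -0.24 with median centring. It passed without TGFb1 replicate 2 (0.35, limma adjusted p = 0.0303).

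Cxcr3, the receptor for the interferon-induced chemokines Cxcl9, Cxcl10 and Cxcl11 and a mark of Th1 cells, lies on the X chromosome. Its normalised signals at 1449925_at were 124 and 101 with TGFb1 alone and 134 and 143 with progesterone. As deposited they were 134 and 105 against 140 and 119, and the groups overlapped. The difference of 0.27 ± 0.17 (SE) did not pass (limma adjusted p = 0.408), and its 95% interval ran from -0.12 to 0.67. It was -0.02 with median centring. Tbx21, the factor that drives Th1 cells and Cxcr3, was at 48.6 and 27.4 against 40.5 and 17.4 and did not pass either (-0.29, limma adjusted p = 0.664).

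Cxcr6, the receptor for the membrane-bound chemokine Cxcl16 and a mark of effector and tissue-resident T cells, had 2 probe sets that pointed the same way. At 1422812_at the normalised signals were 172 and 185 with TGFb1 alone and 118 and 99.5 with progesterone. At 1425832_a_at they were 312 and 295 against 244 and 251. In both, and also as deposited, the progesterone arrays were below the TGFb1 arrays. The differences were -0.64 ± 0.16 (SE; limma adjusted p = 0.0637) and -0.28 ± 0.13 (SE; limma adjusted p = 0.270), so neither passed, with 95% intervals of -1.02 to -0.27 and -0.58 to 0.02. The first passed as deposited (-0.82, limma adjusted p = 0.0294). Both passed with median centring (-0.94, limma adjusted p = 0.00522, and -0.68, limma adjusted p = 0.0149). As deposited, 1298 of the 22518 tested probe sets were called lower and 282 higher, and the median of all was -0.16. With median centring 5276 were called lower and 267 higher, and the median was -0.28. Cxcl16 itself was at 53.7 and 48.0 against 51.8 and 55.1 (0.06, limma adjusted p = 0.906).

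Ccr2, the receptor for Ccl2 that is best known from inflammatory monocytes and is also carried by effector and memory T cells, had 4 probe sets that did not share a direction. At 1421186_at, the brightest, normalised signals were 180 and 93.9 with TGFb1 alone and 56.9 and 59.2 with progesterone. Both TGFb1 arrays were above both progesterone arrays, but they differed from each other by more than the progesterone arrays did. The difference was -0.99 ± 0.27 (SE), with a 95% interval of -1.62 to -0.36 and a limma adjusted p = 0.0821. It passed without TGFb1 replicate 2, the lower of the TGFb1 arrays (-1.37, limma adjusted p = 0.00710), while without TGFb1 replicate 1 it was -0.56 (limma adjusted p = 0.245). It also passed as deposited (-1.08, limma adjusted p = 0.00116) and centred on the median (-1.20, limma adjusted p = 0.00929). In these settings the median of all tested probe sets was itself below 0, at -0.16 and -0.28.

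The other Ccr2 probe sets were dim. At 1421187_at the normalised signals were 111 and 47.2 against 48.2 and 36.5, and the groups overlapped (-0.63 ± 0.33 (SE), limma adjusted p = 0.318). It passed only without TGFb1 replicate 2 among the alternatives run (-1.11, limma adjusted p = 0.0401). At 1421188_at they were 39.6 and 37.6 against 27.0 and 36.9 (-0.19 ± 0.23 (SE), limma adjusted p = 0.676), and with the same trimmed mean the difference was 0.0802. At 1460067_at the order was the opposite, with 34.6 and 34.6 against 56.0 and 54.1 (0.49 ± 0.21 (SE), limma adjusted p = 0.223). The deposited signals at 1460067_at were also higher with progesterone, 33.3 and 32.8 against 61.8 and 47.7. No direction is therefore given for the gene.

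Since Ccr2 also belongs to monocytes, markers of that lineage were read beside it, each gene by its brightest probe set. Over all genes read in this way, 2.63% rose and 4.68% fell. Of the 7 monocyte and macrophage markers with a probe set, 6 were tested and 1 rose, the lysozyme gene Lyz2, from 173 and 54.1 to 685 and 771 (2.69 ± 0.39 (SE), limma adjusted p = 0.00774, and 0.0765 without progesterone replicate 2, 0.0626 with no intensity trend and 0.0624 with a robust variance model). The summed normalised signal of the list was 401 and 231 with TGFb1 alone and 922 and 1059 with progesterone, and most of that difference was Lyz2: without it the other 6 markers summed to 228 and 177 against 238 and 288. Their part in the Ccr2 values was not tested. Csf1r, the growth factor receptor that defines the lineage, was at 43.7 and 64.1 against 44.0 and 84.6, and Cd14 was near background at 15.6 and 3.59 against 31.3 and 27.1. Itgam, the integrin chain CD11b of myeloid cells, had the opposite order, 68.2 and 21.2 against 18.0 and 13.8 (-0.81, limma adjusted p = 0.273), and was called lower without TGFb1 replicate 2 (limma adjusted p = 0.0378). Cd68, a lysosomal protein of macrophages, was at 34.5 and 36.3 against 62.0 and 68.9 (0.66, limma adjusted p = 0.112), and passed with the same trimmed mean (limma adjusted p = 0.0414). No marker of the list was at 0.

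Ccr8, the Ccl1 receptor of Th2 and regulatory T cells, had normalised signals of 276 and 227 with TGFb1 alone and 392 and 295 with progesterone at 1422291_at. As deposited they were 311 and 242 against 393 and 234, and the lowest of the 4 was a progesterone array. The difference was 0.42 ± 0.18 (SE), with a 95% interval of 0.01 to 0.82 and a limma adjusted p = 0.221, and it was 0.14 as deposited and 0.01 with median centring.

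Ccr4, the receptor for Ccl17 and Ccl22 on Th2 and regulatory T cells, was dim. Its normalised signals at 1421655_a_at were 56.0 and 30.4 with TGFb1 alone and 61.1 and 53.4 with progesterone, and the groups overlapped. The difference of 0.34 ± 0.26 (SE) did not pass (limma adjusted p = 0.496), and its 95% interval of -0.26 to 0.94 spans a lower as well as a higher level.

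Both ligands of Ccr4 were higher with progesterone, from levels near background. Ccl22 had normalised signals of 14.4 and 12.7 with TGFb1 alone and 66.0 and 106 with progesterone, and rose by 1.76 ± 0.26 (SE; limma adjusted p = 0.00832), a call lost without progesterone replicate 2 (limma adjusted p = 0.0741) and with no filter (0.0550). Like Ccr6 below, it entered the test through its progesterone values. Ccl17 had 1.68 and 4.99 against 44.0 and 68.6, with no overlap, but its mean lay under the filter and it was not tested. Activated T cells can make Ccl22, and macrophages and dendritic cells are rich sources of both. Of the 6 tested monocyte and macrophage markers, Lyz2 rose and the other 5 did not pass. Among those, the means of Csf1r (0.17), Fcgr1 (0.24), Adgre1 (0.57) and Cd68 (0.66) were higher with progesterone. The mean of Itgam was lower (-0.81). Of the 5 dendritic cell markers with a probe set 2 were tested and neither passed, with summed signals of 88.2 and 104 against 130 and 97.3. The part of such cells in the ligand values was not tested.

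Ccr6, the Ccl20 receptor of Th17 cells and of part of the regulatory population, had a mean level just above the median of all probe sets. Its normalised signals at 1450357_a_at were 3.80 and 17.6 with TGFb1 alone and 34.9 and 68.2 with progesterone. Both TGFb1 arrays lay below the median of all probe sets and both progesterone arrays above it, so the probe set entered the test through its progesterone values. The difference was 1.34 ± 0.36 (SE), with a 95% interval of 0.52 to 2.17 and a limma adjusted p = 0.0738. It passed as deposited (1.39, limma adjusted p = 0.000461), with arrays scaled to the same trimmed mean (1.56, limma adjusted p = 0.0294), centred on the median (1.27, limma adjusted p = 0.0193) and without TGFb1 replicate 2 (1.72, limma adjusted p = 0.0300). With a pseudocount of 1, or without either progesterone array, it fell under the filter and was not tested. Its ligand gene Ccl20 was not tested, being near background.

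Cxcr5, the Cxcl13 receptor that places follicular helper T cells and B cells in follicles, was dim, with normalised signals at 1422003_at of 36.2 and 59.2 with TGFb1 alone and 40.8 and 39.8 with progesterone. The progesterone values lay between the TGFb1 values. The difference of -0.15 ± 0.25 (SE) did not pass (limma adjusted p = 0.766), with a 95% interval of -0.72 to 0.42. Bcl6, the factor that drives follicular helper cells, was at 666 and 631 against 464 and 470 and just missed the threshold (-0.46, limma adjusted p = 0.0540). Of the 7 B cell markers with a probe set 3 were tested and none passed, with summed signals of 139 and 138 against 243 and 154.

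**Figure D3:**
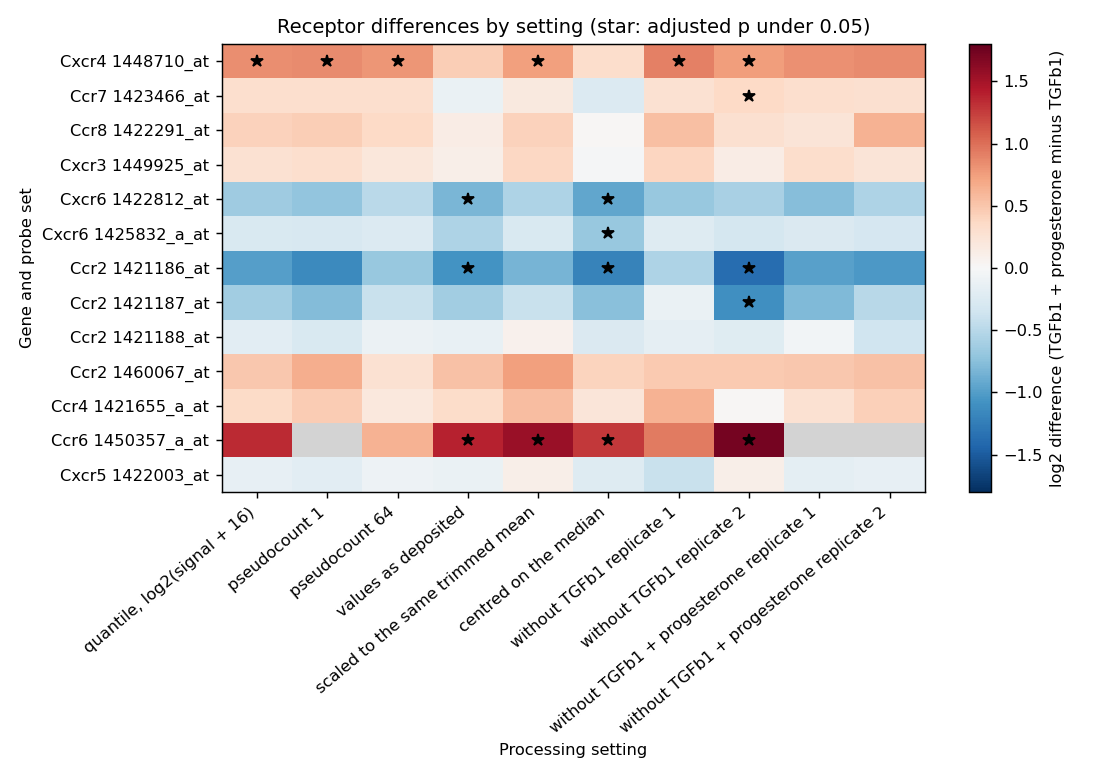
log2 difference (colour; TGFb1 plus progesterone minus TGFb1 alone) of each receptor probe set under 10 processing settings, with stars where the adjusted p was under 0.05 and grey where the probe set fell under the filter. Cxcr4 is positive in every column but starred in 6 of 10, and Ccr7 changes sign in the columns for values as deposited and centring on the median.

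Other genes of the chemokine network were read from lists, each gene by its brightest probe set. Of the 16 other chemokine receptor and related genes listed, 14 had a probe set and 6 were tested, of which 2 rose and 1 fell (median 0.28). Over all genes read in this way, 2.63% rose and 4.68% fell, and the median was 0.02. Gpr15, a receptor that guides T cells to the large intestine, rose from 112 and 83.4 to 317 and 223 (1.33 ± 0.21 (SE), limma adjusted p = 0.0118). Ccr9, the Ccl25 receptor of cells homing to the small intestine, rose from 41.8 and 38.1 to 83.6 and 82.2 (0.82 ± 0.19 (SE), limma adjusted p = 0.0490), and its other 4 probe sets were near background. Ccrl2, an atypical receptor that binds chemerin, fell from 103 and 95.7 to 37.7 and 19.3 (-1.41 ± 0.25 (SE), limma adjusted p = 0.0170). The Ccr9 rise did not pass as deposited (limma adjusted p = 0.0557), with a pseudocount of 1, with no filter, with no intensity trend or with any single array left out (limma adjusted p from 0.0853 to 0.227). Gpr15 did not pass without progesterone replicate 1 (limma adjusted p = 0.0819), with no filter (0.0513) or with no intensity trend (0.0601). Ccrl2 did not pass without progesterone replicate 2 (limma adjusted p = 0.0932), with no filter (0.0854) or with no intensity trend (0.0538).

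Among the 16 ligands of the 9 receptors, 14 had a probe set, 12 were near background and 2 were tested. Of these Ccl22 rose, where 2.63% of all genes rose. With a pseudocount of 64, 3 were tested and 2 rose, where 2.76% of all genes rose. With no filter all 14 were tested and 1 rose, a ligand other than Ccl22, where 0.539% of all genes rose. Of 25 signalling genes downstream of the receptors, 24 had a probe set and all 24 were tested, with a median of 0.02. As reported 0 rose and 1 fell, where 2.63% of all genes rose and 4.68% fell. The member that passed was Coro1a, the actin regulator coronin 1A that T cells need for migration, which fell by 0.24 (limma adjusted p = 0.0444) at 1416246_a_at but was at -0.04 and 0.01 at its other probe sets. It was not called as deposited (limma adjusted p = 0.267), with the same trimmed mean (0.319), with a pseudocount of 1 (0.0502), with no filter (0.232), with no intensity trend (0.362), without TGFb1 replicate 1 or without either progesterone array (limma adjusted p from 0.0641 to 0.313). Gnai2, the main G protein subunit below these receptors in lymphocytes, was at 2280 and 3022 against 2257 and 2582 (-0.12, limma adjusted p = 0.656). Under median centring 12 of the 24 fell and the list median was -0.39, where 29.2% of all genes fell and their median was -0.34.

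Of 14 transcription factors that set helper subsets and their receptors, 13 were tested, 2 rose and 1 fell (median -0.09). Over all genes, 2.63% rose and 4.68% fell, and the median was 0.02. Maf, which promotes Th17 and follicular helper programmes, rose from 318 and 235 to 2099 and 1723 (2.73 ± 0.16 (SE), limma adjusted p = 0.000347). Foxo1, a driver of Ccr7 through Klf2, rose by 0.38 (limma adjusted p = 0.0415) at 1416983_s_at, was at 0.14 and 0.09 at its other tested probe sets, and was -0.05 as deposited and -0.17 under median centring. Klf2 was at 4358 and 4644 against 3858 and 3908 (-0.21, limma adjusted p = 0.131) and did not pass, except under median centring (-0.76, limma adjusted p = 0.00233) and with the replicate block (limma adjusted p = 0.0459). Prdm1, which encodes the effector factor BLIMP1, fell from 150 and 126 to 75.7 and 69.3 (-0.79 ± 0.18 (SE), limma adjusted p = 0.0408). Gata3, the Th2 factor, was at 431 and 648 against 470 and 460, and Foxp3, the regulatory T cell factor, was at 886 and 1201 against 742 and 850. Neither passed (limma adjusted p = 0.617 and 0.217). The Foxo1 call was lost without TGFb1 replicate 2 and without either progesterone array (limma adjusted p from 0.0576 to 0.267), and the Prdm1 call without TGFb1 replicate 1 and without either progesterone array (limma adjusted p from 0.133 to 0.248), while Maf passed in every alternative run. Foxo1 and Prdm1 also missed the threshold with the same trimmed mean (limma adjusted p = 0.156 and 0.0622), with no filter (0.101 and 0.120) and with no intensity trend (0.198 and 0.0741). Under median centring 1 of the 13 rose and 7 fell, where 1.21% of all genes rose and 29.2% fell.

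**Figure D4:**
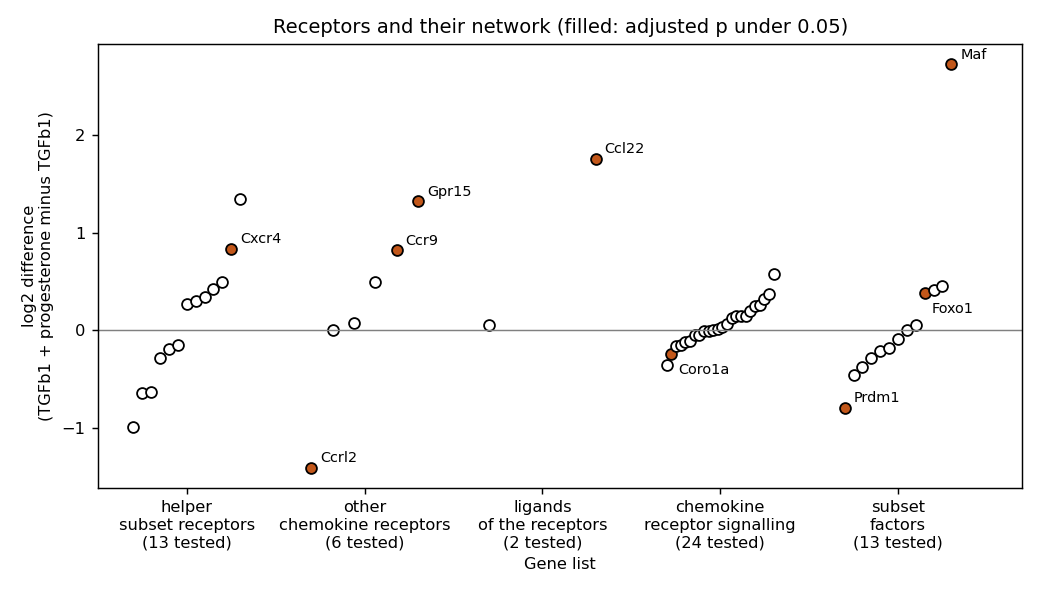
log2 difference (TGFb1 plus progesterone minus TGFb1 alone) of the tested receptor probe sets and of the brightest probe set of each tested gene in 4 related lists, with filled points where the adjusted p was under 0.05. Filled points are Cxcr4 at 0.83 among the receptors, Gpr15, Ccr9 and Ccrl2 among other receptors, Ccl22 among ligands, Coro1a among signalling genes, and Maf, Foxo1 and Prdm1 among subset factors.

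The remaining lists of other cell types were read as checks of what the cultures held. Over all genes, 2.63% rose and 4.68% fell. Of 5 granulocyte markers with a probe set, 3 were tested and 1 rose, S100a8, from 80.7 and 9.40 to 176 and 361, with summed signals of 202 and 31.5 against 279 and 566. That call (limma adjusted p = 0.0492) was lost without progesterone replicate 1 (limma adjusted p = 0.0860) and without progesterone replicate 2 (limma adjusted p = 0.315), and also with a pseudocount of 1 (0.0792), no filter (0.164), no intensity trend (0.149) and a robust variance model (0.209). In the other lists no marker passed as reported: none among the 4 mast cell and basophil markers tested (summed signals of 1393 and 923 against 1017 and 1297), the 2 CD8 T cell markers (143 and 170 against 154 and 102) or the 1 natural killer cell marker tested (220 and 345 against 154 and 186). Some passed in other settings. The mast cell and basophil gene Ms4a2, at 73.0 and 42.5 against 120 and 128 (0.96, limma adjusted p = 0.0546), was called higher in 7 of the 14 alternatives, Fcer1a was called higher without TGFb1 replicate 1 and Cpa3 lower under median centring. Eomes, the natural killer cell marker tested, was at 186 and 318 against 122 and 153 (-0.76, limma adjusted p = 0.124) and was called lower in 4 of the 14, as deposited, under median centring, with the replicate block and without TGFb1 replicate 1. Of the granulocyte markers, S100a9 was called higher as deposited and without TGFb1 replicate 1. Their part in the receptor values was not tested.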

How the data were processed

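RNA from 4 samples was measured on expression arrays, 2 per group, with biotin-labelled cRNA made from 2 ug of total RNA per the labels' protocols. Each deposited value is the signal intensity of a probe set, unlogged, and the submitters' processing notes name MAS5, which merges the probes of a set within an array; the version and the scaling between arrays are not given in the sources used here. The number of arrays limits the precision.

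Groups and replicate numbers came from the sample titles. After leaving out 64 control probe sets, signals were quantile normalised and taken as log2(signal + 16), and probe sets whose mean lay above the median of all were tested, 22518 in all. Testing used limma (3.58.1, under R 4.3.3): lmFit without covariates, then eBayes with an intensity trend, on 2 residual degrees of freedom, with Benjamini-Hochberg adjustment. The prior degrees of freedom were 5.78. The p-values and intervals thus rest more on spread shared among probe sets than on each probe set's own. Of 45037 probe sets, 34945 had 1 gene in the platform annotation, 932 several and 9160 none, and 34741 symbols were updated through their Entrez identifier from a RefSeq gene table (GRCm38.p6). Every member probe set is named; in each gene list those that passed are named, with ligands and factors of the members. The members and lists were chosen with earlier results of these data known. The same test was run on simulated arrays of normal noise, with a spread set by signal level and no scaling difference between arrays. It recovered 37.3% of planted 1.5-fold changes, 73.1% of 2-fold and 84.8% of 4-fold changes, and 4.41% of its calls were false. Such data do not cover the differences in scaling seen here. Nor do they cover probe sets of like level that differ in spread, or the sex difference of the groups. These rates therefore do not carry over to the arrays. Alternatives were other pseudocounts (1 and 64), scalings, filters and variance models, the replicate number as a block, and leaving out each array.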

Additional observations from a re-analysis of the deposited data

How the results depend on the processing

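With 2 arrays per group, the number of calls depended on the processing and on which arrays were kept. How many calls the settings shared was not counted. The count of changed probe sets over the array, 1348 as reported, was 5543 with each array centred on its median, 534 with no filter, 829 in the upper 25% by level and 481 with no intensity trend, and ran from 323 to 1646 when each array was left out. The lowest count came without progesterone replicate 2, and 582 came without progesterone replicate 1. The share of calls that were higher was 39.5%, against 17.8% as deposited and 4.82% with centring, where the median of all tested probe sets was -0.16 and -0.28. In the fit of deposited values the prior degrees of freedom were infinite, so each probe set's own spread was not used. Of all tested probe sets, 5.99% were called as reported and 7.02% as deposited. The share was 7.32% with the same trimmed mean, 24.6% with centring and 2.14% with no intensity trend. The count of changed receptor probe sets, 1 as reported, was 3 as deposited, 2 with arrays scaled to the same trimmed mean, 4 with centring and 0 with no intensity trend, and ran from 0 to 5 when each array was left out. It was 0 without either progesterone array. With no intensity trend Cxcr4 had a limma adjusted p = 0.0548, and over its 14 alternatives the value ran from 0.32 to 0.90 with adjusted p from 2.5e-05 to 0.364.

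The replicate numbers are not said to mark a shared culture, and the correlation of the deviations of same-numbered arrays was 0.18 over only 2 pairs, so the main test has no block. With the replicate block 3152 probe sets changed, 14% of all tested. Of the 13 receptor probe sets 6 did, 4 higher and 2 lower. Cxcr4, Ccr7 (limma adjusted p = 0.00985), Ccr8 (0.0429) and Ccr6 (0.00492) were higher, and Ccr2 1421186_at (0.00800) and Cxcr6 1422812_at (0.0180) lower. That fit has 1 residual degree of freedom.

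Signs turned for Ccr2 1421188_at (0.0802 with the same trimmed mean), Ccr7 (-0.12 as deposited and -0.24 centred), Cxcr3 (-0.0161 centred) and Cxcr5 (0.0995 with the same trimmed mean, and from -0.40 to 0.11 when each array was left out, with the highest without TGFb1 replicate 2). The cause was not tested. No other receptor probe set changed sign under the alternatives in which it was tested.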
